A study of Mus musculus with 16 samples.

Results

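The mitochondrially encoded genes are the genes carried by the mitochondrial chromosome itself. They were taken as all genes of the count table whose GRCm38 symbol begins with mt-, and there were 37 of them among 49585 genes. They comprise 13 protein genes, 2 ribosomal RNA (rRNA) genes and 22 transfer RNA (tRNA) genes, and these are all 37 genes that the GENCODE M21 annotation places on the mitochondrial chromosome. The study profiled RNA of CD4+ T cells sorted by flow cytometry from BALB/c background mice whose Foxp3 gene carries an IRES-GFP reporter. There were 4 groups of 4 libraries. Uterine CD4conv are Foxp3- conventional T cells of the non-pregnant uterus. Lymph node Treg are Foxp3+CD25+ regulatory T cells of the para-aortic nodes of non-pregnant mice. Uterine Treg are Foxp3+CD25- cells of the non-pregnant uterus, and pregnant uterine Treg are Foxp3+CD25- cells of the uterus at days 6 to 8 of pregnancy, although the titles of 3 of those 4 samples give a later last day. Each library came from a pool, of 20 mice where they were not pregnant and of 3 to 8 where they were, and no ages are given in the sources used here. CD25 status differs between lymph node Treg and both uterine Treg groups, so tissue and CD25 status cannot be told apart. CD4conv and pregnant uterine Treg were sequenced in batch 1, lymph node Treg and uterine Treg in batch 2, so comparisons of cell type (uterine Treg against CD4conv) and of pregnancy run across the 2 batches, and in these batch and group cannot be told apart.

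The mammalian mitochondrial chromosome is a small circle that encodes the catalytic core of oxidative phosphorylation together with the rRNAs and tRNAs that translate it. It is transcribed as long precursors from both strands, and the tRNAs that lie between most of its genes are cut out to release the mRNAs and rRNAs, so the final RNA levels depend mainly on processing and stability. All factors for transcription, RNA processing and translation are made from nuclear genes. Over evolution, stretches of mitochondrial DNA have also been inserted into nuclear chromosomes. A read that matches both an insertion and the mitochondrial original cannot be placed, and what a counting program does with such a read decides the level that a gene is given. Which option the authors used is not given in the sources used here.

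Such an insertion bears on these members. On chromosome 1 of GRCm38, 7 adjacent unprocessed pseudogenes on the minus strand span chr1:24611535-24616197 and follow the mitochondrial chromosome from base 6390 to base 11042. Over 4140 aligned bases they differ from the mitochondrial genes by 2 substitutions. The stretch holds 11 members whole, namely 6 protein genes (mt-Co2, mt-Atp8, mt-Atp6, mt-Co3, mt-Nd3 and mt-Nd4l) and 5 tRNA genes (mt-Ts1, mt-Td, mt-Tk, mt-Tg and mt-Tr), as well as the last 483 bases of mt-Co1 and the first 876 bases of mt-Nd4. No gene model of the copy covers mt-Atp8 or these tRNA genes, so their place inside it follows from their neighbours. For 5 members, mt-Co2, mt-Atp6, mt-Co3, mt-Nd3 and mt-Nd4l, a gene model matched nearly the whole gene with no more than 1 substitution, at 99.7% identity for mt-Nd3 and 100% for the other 4. The sequences are shown because they set what a read can distinguish. They come from the GENCODE M21 transcripts, are written 5′ to 3′ in the direction of the gene, and carry capitals at substituted bases, with positions counted from the first base of the mitochondrial gene.

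In the first 80 bases of mt-Nd3 (MT:9459-9538, plus strand), a subunit of complex I, and of its copy Gm28438 (chr1:24613040-24613119, minus strand), the only difference is T3C, and no other substitution was found over 345 aligned bases.
mt-Nd3: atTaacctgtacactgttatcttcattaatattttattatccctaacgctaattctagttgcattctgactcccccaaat
Gm28438: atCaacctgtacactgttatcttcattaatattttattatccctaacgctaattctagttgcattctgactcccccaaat
For mt-Co3, a core subunit of complex IV, and its copy Gm28437 (chr1:24613189-24613971) no base differed over 783 aligned bases. A window as long as a sequencing read of this study, 150 bases (MT:8907-9056), stands for both.
mt-Co3: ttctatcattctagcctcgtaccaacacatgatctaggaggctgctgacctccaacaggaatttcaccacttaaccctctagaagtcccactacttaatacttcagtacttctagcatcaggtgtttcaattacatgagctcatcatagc
A window of equal length in mt-Co1 (MT:5628-5777), the catalytic subunit of complex IV, differs by C313T from a second copy on chromosome 2, Gm13340 (chr2:22589198-22589347, minus strand), which was 97.6% identical over the whole gene with 37 substitutions. The median distance between neighbouring substitutions was 33 bases and the longest was 149, so a read of 150 bases inside mt-Co1 usually crosses at least 1 of them, though its last 483 bases are also in the chromosome 1 copy.
mt-Co1: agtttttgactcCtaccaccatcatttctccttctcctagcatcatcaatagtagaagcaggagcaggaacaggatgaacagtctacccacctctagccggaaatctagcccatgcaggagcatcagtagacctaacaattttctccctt
Gm13340: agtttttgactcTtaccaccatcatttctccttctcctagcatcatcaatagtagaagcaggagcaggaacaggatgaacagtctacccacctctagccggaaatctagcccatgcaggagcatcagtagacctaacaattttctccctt
Less alike copies, from 90.7% to 96.7% identity, were annotated on chromosomes 2, 4, 11 and 13 for parts of mt-Nd2, mt-Co1 and mt-Nd5 and for nearly all of mt-Co2, mt-Nd6 and mt-Cytb. The reference mitochondrial sequence is that of C57BL/6J, and how BALB/c mitochondrial DNA differs from it was not tested.

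The libraries held 3.57 M to 15.2 M counts in batch 1 and 1.72 M to 6.30 M counts in batch 2 (M, 1000000). Foxp3 followed the labels of the groups: it was at 0.503 to 3.26 counts per 1000000 counts of the library (CPM) in the 4 CD4conv libraries, while the 12 Treg libraries held 192 to 814 CPM. CD4conv also held markers of other cells, with the summed level of 15 macrophage and dendritic cell genes at 5263, 17871, 23444 and 1744 CPM in replicates 1, 2, 3 and 5, against 127 to 1318 CPM in the Treg libraries. For 7 plasmacytoid dendritic cell genes it was 2143 to 5292 against 81.4 to 534 CPM. NK cell genes (12) held 680 to 2128 against 106 to 254 CPM, and CD8 T cell genes (2) 139 to 350 against 6.02 to 38.6 CPM. Lists for T cells, B cells, stroma, smooth muscle, epithelium, endothelium and erythroid cells overlapped. The part of other cells in comparisons with CD4conv was not tested. Genes that T cells do not use also took counts. With the counts per exonic base of 1429 genes for olfactory and vomeronasal receptors extended to all exons, this background came to 8.68% to 53.5% of a library's counts and was above 30% in 5 libraries. These were replicate 3 of lymph node Treg, replicates 3 and 5 of uterine Treg, and replicates 2 and 4 of pregnant uterine Treg.

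Mitochondrial genes together took 0.956% to 4.00% of the counts of a library. In CD4conv the total was 17769, 39960, 16497 and 9637 CPM in replicates 1, 2, 3 and 5. In lymph node Treg it was 21174, 10999, 13265 and 9561 CPM. In uterine Treg it was 17287, 13438, 12611 and 13802 CPM, and in pregnant uterine Treg it was 15723, 19218, 16693 and 10329 CPM for replicates 1 to 4. All groups overlapped, and CD4conv 2 stood above every other library. As a percentage of counts, the group means were 2.10 ± 1.32 in CD4conv, 1.37 ± 0.518 in lymph node Treg, 1.43 ± 0.206 in uterine Treg and 1.55 ± 0.374 in pregnant uterine Treg (SD, n = 4). On the log2 scale the total differed by 0.11 between uterine and lymph node Treg (exact permutation test, two-sided, n = 4 and 4, p = 0.686). It differed by -0.37 between uterine Treg and CD4conv (exact p = 0.571), by 0.09 between pregnant and non-pregnant uterine Treg (exact p = 0.714) and by -0.28 between pregnant uterine Treg and CD4conv (exact p = 0.686). With 4 libraries against 4 there are 70 arrangements and the smallest possible p is 0.0286. In bulk RNA of sorted cells, fewer cells of a type and less RNA per cell cannot be told apart.

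**Figure D1:**
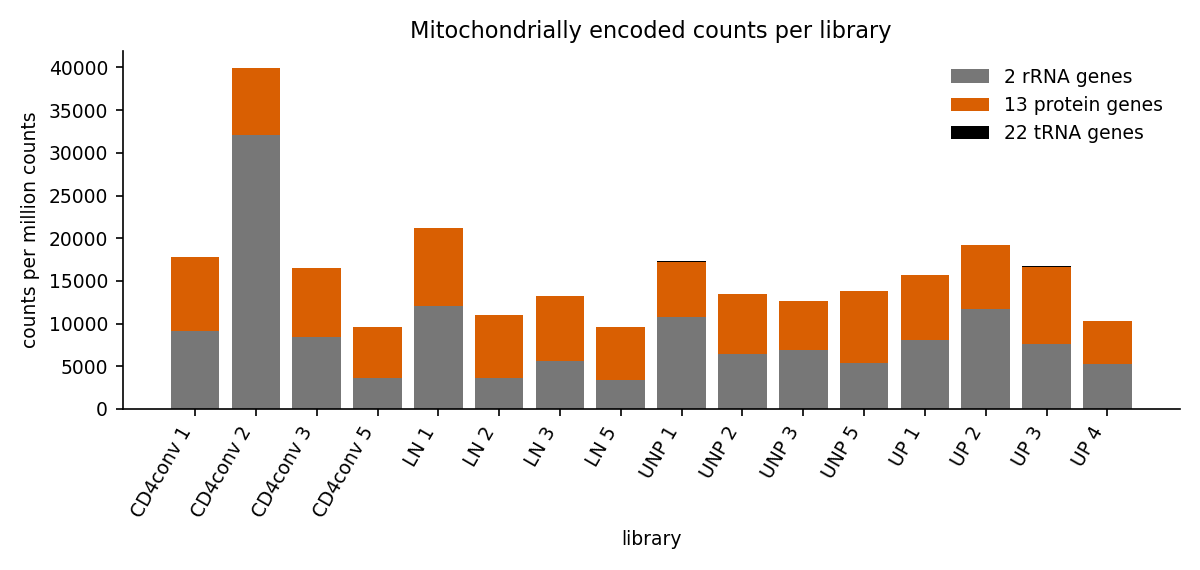
Counts of the mitochondrially encoded genes in each of the 16 libraries, in counts per 1000000 counts of the library, stacked by RNA class (UNP, uterine Treg; UP, pregnant uterine Treg; LN, lymph node Treg). CD4conv 2 reaches 39960 CPM through its rRNA part, while the protein gene part lies between 5057 and 9039 CPM in all libraries and the tRNA part is barely visible.

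The rRNA genes took the largest part of the total. Summed over the libraries, the 2 rRNA genes made up 57.8% of mitochondrial counts, the 13 protein genes 42.1% and the 22 tRNA genes 0.128%. Because cDNA was primed on poly(A) tails, these are shares of counted reads and need not be shares of the RNA in the cells. The same limit holds for the ratio of the rRNA genes and for the levels per kilobase given below. mt-Rnr2, the 16S rRNA of the large mitoribosomal subunit, was at 8391, 29694, 7828 and 3337 CPM in CD4conv, at 10867, 3298, 5016 and 3170 CPM in lymph node Treg, at 10110, 5923, 6420 and 4966 CPM in uterine Treg and at 7600, 10978, 7252 and 4637 CPM in pregnant uterine Treg. In CD4conv 2 it alone made 74.3% of mitochondrial counts, against 29.98% to 58.5% in the other 15 libraries. mt-Rnr1, the 12S rRNA of the small subunit, was also highest there, at 2339 CPM, and lay between 234 and 1232 CPM elsewhere. CD4conv 2 was also high in macrophage and dendritic cell markers, but CD4conv 3, which was higher in them, had an rRNA share of 50.8%; the part of those cells in the rRNA level was not tested. Over all 16 libraries the coefficient of variation of CPM was 77.9% for mt-Rnr2 and 76.9% for mt-Rnr1, and without CD4conv 2 it was 39.9% and 45.3%. Among the protein genes outside the copied stretch it ran from 17.9% (mt-Nd5) to 37.2% (mt-Nd6), and inside it from 59.7% (mt-Atp6) to 78.8% (mt-Atp8).

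The rRNA share of mitochondrial counts averaged 54.9% ± 18.1 in CD4conv, 42.1% ± 10.7 in lymph node Treg, 50.95% ± 10.001 in uterine Treg and 52.2% ± 6.46 in pregnant uterine Treg (SD, n = 4), and no comparison had an exact permutation p under 0.257. The ratio of mt-Rnr2 to mt-Rnr1 was 8.82, 9.78, 8.22 and 11.8 in lymph node Treg and 14.7, 12.7, 13.2 and 11.7 in uterine Treg. The groups overlapped by 1 library on each side. On the log2 scale the means were 3.26 and 3.70 (exact permutation p = 0.0571, n = 4 and 4; adjusted 0.762 over the 40 tests of 10 measures of the mitochondrial total and its composition in 4 comparisons).

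**Figure D2:**
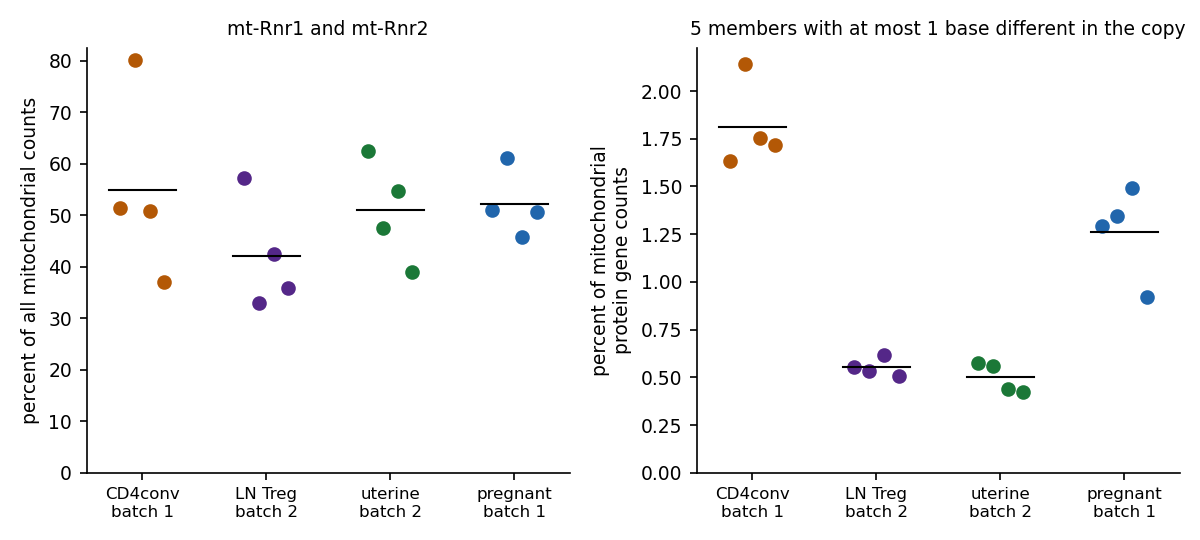
Left, the percentage of mitochondrial counts in the 2 rRNA genes, and right, the percentage of mitochondrial protein gene counts in the 5 members whose chromosome 1 copy differs by at most 1 base; each point is a library and each line a group mean. The rRNA shares of the groups overlap, with CD4conv 2 at 80.2%, while the right panel separates batch 1 (0.919% to 2.14%) from batch 2 (0.425% to 0.619%).

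Per kilobase of gene, the level fell into 2 ranges that followed the copied stretch. As mean CPM per kb over 16 libraries (± SD), mt-Rnr2 was at 5116 ± 3986, followed by mt-Nd1 (complex I) at 1488 ± 291, mt-Cytb, the cytochrome b of complex III, at 1371 ± 304, and mt-Co1 at 1156 ± 254. Then came mt-Rnr1 at 692 ± 532, mt-Nd6, the one protein gene on the other strand, at 685 ± 255, mt-Nd5 at 533 ± 95.5, mt-Nd4 at 499 ± 150 and mt-Nd2 at 456 ± 146. Neighbours in this order differed by less than the larger of their SDs. The 6 protein genes inside the copied stretch followed far lower. mt-Co3 was at 36.9 ± 25.8, mt-Atp6, the proton channel subunit a of ATP synthase, at 35.5 ± 21.2 and mt-Co2, the subunit of complex IV that receives electrons from cytochrome c, at 32.4 ± 20.8 CPM per kb. mt-Atp8 (ATP synthase) was at 4.72 ± 3.71, mt-Nd3 at 4.29 ± 3.10 and mt-Nd4l at 2.65 ± 1.77 CPM per kb. The highest member inside (36.9) and the lowest protein gene outside (456) did not overlap, and the medians, 18.5 and 685 CPM per kb, stood 36.9-fold apart. These 6 genes held 10728 counts in all 16 libraries, 0.571% of the mitochondrial counts. Divided by only the bases outside the copied stretch, mt-Co1 came to 1682 and mt-Nd4 to 1369 CPM per kb. The protein genes with no base in the stretch were at 1488 (mt-Nd1), 1371 (mt-Cytb), 685 (mt-Nd6), 533 (mt-Nd5) and 456 (mt-Nd2). These levels differ widely, so the division does not show how many reads the copied parts lost, which was not tested.

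**Figure D3:**
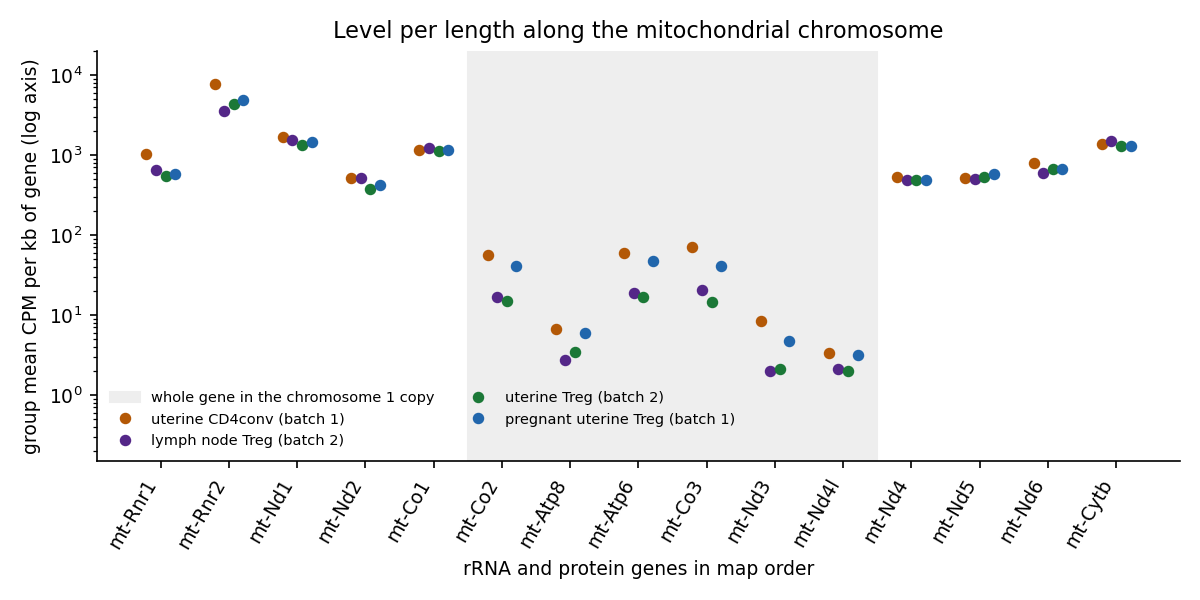
Group mean level of the 2 rRNA and 13 protein genes in CPM per kilobase of gene on a log axis, in map order; colours are groups and grey marks the genes wholly inside the chromosome 1 copy. The 6 genes in grey lie between 2.65 and 36.9 CPM per kb on average over the libraries, the other protein genes between 456 and 1488.

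The tRNA genes gave few counts, 2405 in all. cDNA was primed on poly(A) tails and mature tRNAs are shorter than a sequencing read, so these counts need not come from mature tRNA. mt-Tp, the proline tRNA gene on the minus strand, had the most (676 counts, mean 6.53 CPM), followed by mt-Tq (286 counts) and mt-Te (270 counts). Of the 17 tRNA genes outside the copied stretch, every one had counts, from 6 for mt-Tw upwards. Of the 5 inside it, mt-Td, mt-Tk, mt-Tg and mt-Tr had 0 counts in all 16 libraries, which allows up to 3 counts in the 102 M of all libraries, or 0.0293 CPM. mt-Ts1, at the edge of mt-Co1, had 80. The sequence of mt-Td (MT:6942-7011, plus strand), at 0, is shown beside that of mt-Tp (MT:15356-15422, minus strand).
mt-Td: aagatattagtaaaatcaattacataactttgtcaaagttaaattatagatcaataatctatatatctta
mt-Tp: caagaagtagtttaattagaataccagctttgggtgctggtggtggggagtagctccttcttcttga
Strand was not marked in these libraries, so reads of the tRNA genes on the minus strand, and of mt-Nd6, include any from the opposite transcript.

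The nuclear copies were counted beside their mitochondrial originals. Over the 16 libraries mt-Co2 had 3030 counts and its copy Gm28661 had 2027. mt-Atp6 had 3269 and Gm10925 had 4682. mt-Co3 had 4019 and Gm28437 had 5453. mt-Nd3 had 195 and Gm28438, which differs by T3C, had 1549. mt-Nd4l had 93 and Gm10222 had 320. The 5 members together had 10606 counts and their copies 14031. Of the copies of parts of genes, Gm29216, over the end of mt-Co1, averaged 64.98 CPM in CD4conv, 21.6 in lymph node Treg, 25.1 in uterine Treg and 35.8 in pregnant uterine Treg, and Gm28439, over the start of mt-Nd4, averaged 6.39, 1.44, 2.13 and 6.22 CPM. Gm13340 on chromosome 2, which is distinguishable from mt-Co1, averaged 6.88 to 8.51 CPM in the 4 groups.

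The levels of mt-Co2, mt-Atp6 and mt-Co3 differed between the sequencing batches. In CD4conv mt-Co3 was at 46.1, 72.3, 60.4 and 44.95 CPM. The other group of batch 1, pregnant uterine Treg, had 27.7, 33.2, 51.8 and 16.5 CPM. In batch 2 it was at 21.1, 16.2, 16.9 and 10.1 CPM in lymph node Treg and at 10.97, 16.2, 8.91 and 8.91 CPM in uterine Treg. Batch 1 was the higher, except that pregnant uterine Treg 4 reached into the range of batch 2. mt-Co2 followed the same order, at 42.4, 50.2, 40.1 and 20.98 CPM in CD4conv. In pregnant uterine Treg the values were 29.3, 31.6, 37.9 and 14.6 CPM. It was at 15.2, 8.58, 11.6 and 10.9 CPM in lymph node Treg and at 11.3, 9.80, 5.94 and 13.9 CPM in uterine Treg. For mt-Atp6 the values were 47.7, 41.5, 37.9 and 35.2 CPM in CD4conv, 39.4, 32.8, 42.1 and 13.2 CPM in pregnant uterine Treg, 11.7, 13.8, 16.9 and 8.85 CPM in lymph node Treg and 13.4, 13.001, 8.06 and 11.4 CPM in uterine Treg. The batch medians differed by 3.13-fold for mt-Co2, 3.13-fold for mt-Atp6 and 3.35-fold for mt-Co3. They differed by 3.16-fold for Gm28661, 3.33-fold for Gm10925 and 2.14-fold for Gm28437. In the 9 protein and rRNA genes outside the copied stretch the ratio of batch medians ran from 0.891 (mt-Cytb) to 1.41 (mt-Rnr2). Gm28438, the copy of mt-Nd3, had a ratio of 0.918, while mt-Nd3 itself had 3.24 on very few counts, between 0 and 4.15 CPM.

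**Figure D4:**
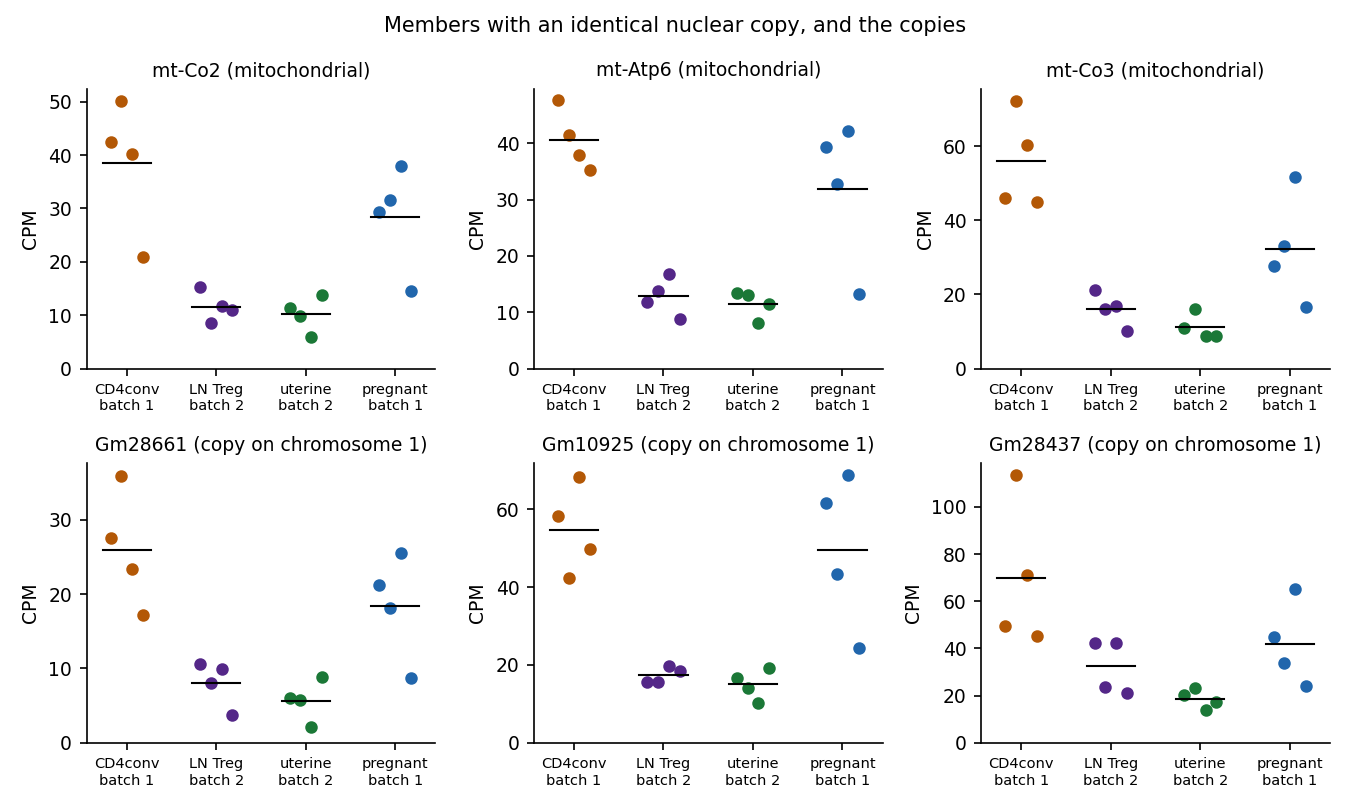
Level in CPM of mt-Co2, mt-Atp6 and mt-Co3 (top) and of their chromosome 1 copies (bottom), 1 point per library and a line at the group mean. In all 6 panels both groups of batch 1 have higher means than both groups of batch 2, and pregnant uterine Treg 4 is the lowest library of batch 1.

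As a share of mitochondrial protein gene counts, the 5 members whose copy differs by at most 1 base took 1.63%, 2.14%, 1.75% and 1.72% in CD4conv. In pregnant uterine Treg the shares were 1.29%, 1.35%, 1.49% and 0.919%. They took 0.555%, 0.532%, 0.619% and 0.505% in lymph node Treg and 0.574%, 0.560%, 0.440% and 0.425% in uterine Treg. The batches did not overlap. Within batch 1, pregnant uterine Treg lay below CD4conv without overlap, with means of 1.26 ± 0.243 and 1.81 ± 0.226 (SD, n = 4; exact permutation p = 0.0286, the smallest possible, and 0.190 adjusted over 40 tests of measures added after seeing the data). As a share of all mitochondrial counts these groups overlapped (exact p = 0.314). Within batch 2 the groups overlapped, with 0.500 ± 0.0781 in uterine Treg and 0.553 ± 0.0487 in lymph node Treg (exact permutation p = 0.314). Across batches, uterine Treg against CD4conv and against pregnant uterine Treg also reached the exact p of 0.0286 (adjusted 0.190), and batch and group cannot be told apart there.

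Each gene was also tested in a fit of all genes with edgeR (quasi-likelihood test, Benjamini-Hochberg adjustment over 30096 genes, threshold 0.05). Of the 37 members 19 passed the filter on low counts: 11 protein genes (all but mt-Atp8 and mt-Nd4l), both rRNA genes and the tRNA genes mt-Tc, mt-Te, mt-Tl2, mt-Tm, mt-Tp and mt-Tq. The filter asked for at least 1.92 CPM in 4 libraries, and mt-Nd3 met it in all 4 CD4conv libraries, 1 pregnant uterine Treg library and 0 of the others. It passed through CD4conv, the group where it is high, so its values against CD4conv are given as a description and support nothing. None of the 19 passed the threshold in any of the 4 comparisons, beside 0% of all tested genes in the tissue comparison, 0.518% in the cell type comparison, 0% in the pregnancy comparison and 0.432% for pregnant uterine Treg against CD4conv. At an unadjusted p under 0.05 there were 0, 4, 3 and 0 members, while 3.01%, 5.33%, 2.73% and 4.79% of all genes reached it. The 4 members of the cell type comparison include mt-Nd3, to which the limit just given applies. DESeq2 called 0, 3, 0 and 0 members, beside 0.0956%, 0.967%, 0.0403% and 0.996% of all genes. A fit of genes above background alone called 0, 3, 0 and 0 members, beside 1.31%, 6.06%, 0% and 8.3% of its genes. Library size scaling in edgeR called 0, 1, 0 and 0 members, beside 0%, 0.395%, 0% and 0.492% of all genes. Fold changes below are log2, and the choice of scaling moved them: dividing by library size alone in place of TMM factors took the median over all genes from -0.06 to 0.10 (tissue), from -0.05 to 0.30 (cell type), from 0.11 to 0.04 (pregnancy) and from 0.07 to 0.35 (pregnant uterine Treg against CD4conv).

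Between Treg of the uterus and of its draining node, within batch 2, the levels of the protein genes overlapped. mt-Co1 averaged 1718 ± 300 CPM in uterine and 1869 ± 273 CPM in lymph node Treg, mt-Cytb 1490 ± 350 and 1728 ± 177, mt-Nd1 1282 ± 227 and 1449 ± 328, and mt-Nd5 966 ± 278 and 925 ± 135 (SD, n = 4). mt-Nd2, a complex I subunit, had a log2 fold change of -0.75 (SE 0.59), the furthest from 0 among the protein genes, at 320, 356, 347 and 525 CPM in uterine and 788, 467, 533 and 329 CPM in lymph node Treg, which overlapped. All 19 members had a fold change below 0 and their median was -0.40, beside -0.06 over all genes. That median came to 0.09 without lymph node Treg 1, which had the highest mitochondrial total of its group. When any other single library of these groups was left out, it stayed between -0.60 (without uterine Treg 2) and -0.25 (without uterine Treg 3). The median was 0.02 over the 24 members above background when only such genes were fitted. With library size scaling it was -0.17, with 4 of 19 above 0. No member was without overlap between the groups, while 2.18% of all genes were without overlap and lower in uterine Treg and 1.22% higher.

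Between uterine Treg and CD4conv, mt-Co3, mt-Co2 and mt-Atp6 had the lowest fold changes of the members that reached 1.92 CPM in all 16 libraries. The log2 fold change was -2.57 for mt-Co3 (SE 0.64, edgeR adjusted p = 0.0808), -2.29 for mt-Co2 (SE 0.64, adjusted p = 0.158) and -2.07 for mt-Atp6 (SE 0.60, adjusted p = 0.189). For mt-Nd3 it was -2.48 (SE 1.09, adjusted p = 0.811), under the limit on its filter given above. mt-Co3, mt-Co2 and mt-Atp6, and mt-Nd3 under the same limit, were without overlap between the groups and lower in uterine Treg, as were 2.65% of all genes, while 0 members and 1.68% of all genes were higher without overlap. mt-Co3 passed the threshold under library size scaling (adjusted p = 0.0394), and mt-Co2, mt-Atp6 and mt-Co3 passed it with DESeq2 (0.0244, 0.0287 and 0.00557) and in the fit of genes above background (0.0167, 0.0092 and 0.00114). The same 3 genes differ between the batches as described, and no term for batch can be fitted here. Outside the copied stretch, protein genes ran from -0.84 (mt-Nd2) to -0.28 (mt-Co1), and mt-Rnr1 and mt-Rnr2 stood at -1.45 (SE 0.76) and -1.38 (SE 0.83). Without CD4conv 2 the rRNA values were -0.09 and -0.03, and the median of all tested members moved from -0.98 to -0.30.

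In pregnant against non-pregnant uterine Treg, the copied members again stood apart from the rest. The log2 fold change was 1.66 for mt-Co2 (SE 0.63), 1.65 for mt-Atp6 (SE 0.59), 1.63 for mt-Co3 (SE 0.62) and 1.32 for mt-Nd3 (SE 1.07), each with an edgeR adjusted p of 1. mt-Co2 and mt-Co3 were without overlap and higher in pregnancy, as were 0.532% of all genes, while 0 members and 0.498% of all genes were lower without overlap. This comparison crosses the batches too, and batch and pregnancy cannot be told apart in it. The 9 other protein and rRNA genes ran from 0.03 (mt-Rnr1) to 0.39 (mt-Nd2), with a median of 0.22 beside 0.11 over all genes. mt-Nd6 averaged 350 ± 85.5 CPM in non-pregnant and 350 ± 78.5 CPM in pregnant uterine Treg (SD, n = 4), and mt-Nd4 665 ± 147 and 678 ± 230 CPM. mt-Co1 was at 2072, 1589, 2564 and 956 CPM in pregnant uterine Treg, where replicate 4, the library with the highest background, was the lowest of all 16, and mt-Cytb at 1606, 1377, 2216 and 769 CPM, again lowest in replicate 4.

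Between pregnant uterine Treg and CD4conv, both of batch 1, the copied members came closer to the others. The log2 fold change was -0.94 for mt-Co3 (SE 0.60), -0.63 for mt-Co2 (SE 0.61), -0.43 for mt-Atp6 (SE 0.57) and -1.16 for mt-Nd3 (SE 1.00), and the edgeR adjusted p was 1.00 for each. Of the 19 tested, mt-Nd3 alone was without overlap, lower in pregnant uterine Treg, as were 3.05% of all genes (1.31% were higher without overlap), and it had passed the filter through CD4conv. It was at 1.16, 1.67, 1.71 and 1.96 against 2.95, 4.15, 2.31 and 2.22 CPM. mt-Co1 (-0.03), mt-Nd5 (-0.07) and mt-Cytb (-0.12) lay near 0, and mt-Nd6 was at -0.67 and mt-Nd2 at -0.45. The rRNA genes stood at -1.42 (mt-Rnr1) and -1.18 (mt-Rnr2), which became -0.06 and 0.18 without CD4conv 2. The median of all tested members, -0.45, became -0.04 without that library and 0.08 in the fit of genes above background.

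**Figure D5:**
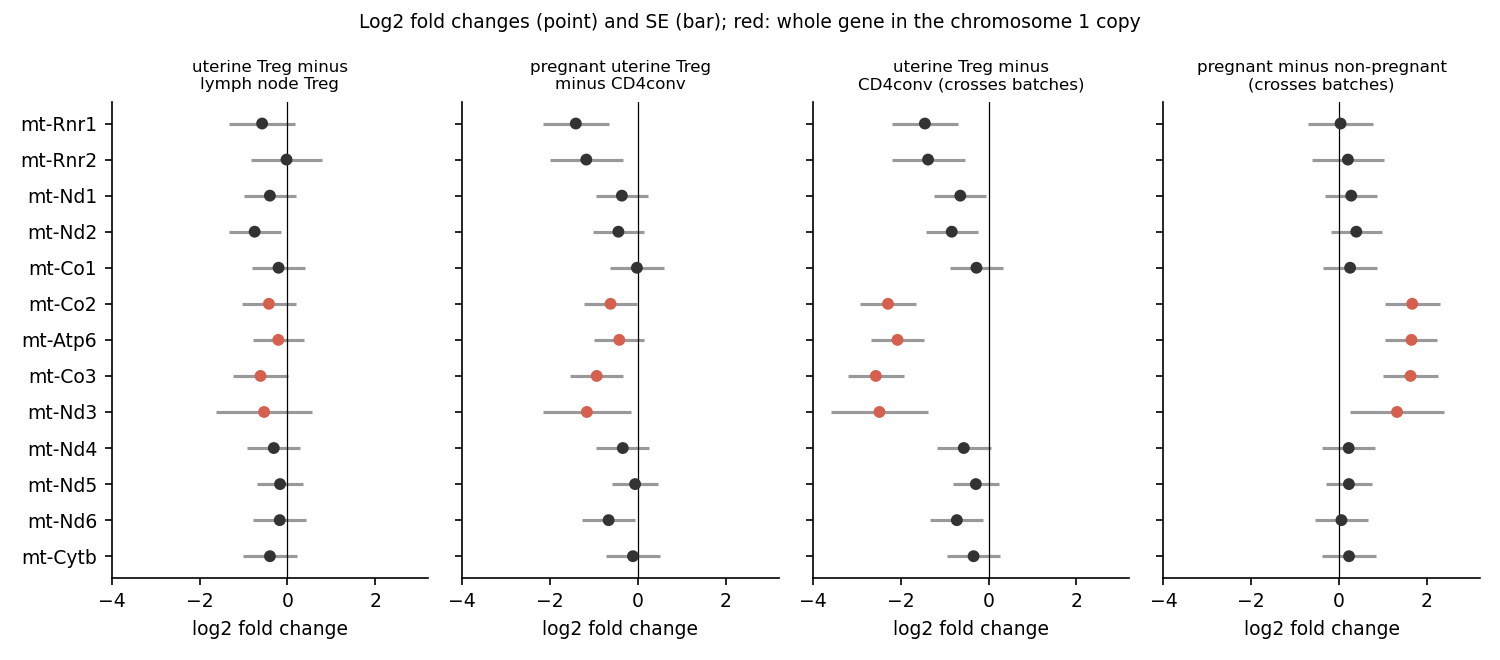
Log2 fold change (point) with its standard error (bar) from edgeR for the 13 rRNA and protein members that passed the filter, in map order, in the 4 comparisons; red marks genes wholly inside the chromosome 1 copy, of which mt-Nd3 passed the filter through CD4conv. Red points lie between -2.57 and -2.07 and between 1.32 and 1.66 in the 2 comparisons that cross batches, and closer to the other members in the other two.

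By respiratory complex, the shares of the protein counts overlapped between the groups. The complex I genes made up 54.5% ± 5.77 of mitochondrial protein counts in CD4conv, 51.0% ± 5.91 in lymph node Treg, 52.9% ± 5.45 in uterine Treg and 55.1% ± 8.57 in pregnant uterine Treg, and the complex IV genes 24.3% ± 3.02, 25.5% ± 4.16, 25.4% ± 3.93 and 24.7% ± 4.62 (SD, n = 4). No comparison of either had an exact permutation p under 0.657. The complex IV share is nearly all mt-Co1: in uterine Treg mt-Co1 averaged 12.2% of mitochondrial counts, mt-Co2 0.0715% and mt-Co3 0.0798%. Of the complex I genes, mt-Nd3, mt-Nd4l and the first 876 bases of mt-Nd4 also lie in the copied stretch. These shares describe counted reads and not the output of a whole complex. The ATP synthase genes mt-Atp6 and mt-Atp8, both inside the copied stretch, made up 0.0851% of mitochondrial counts in uterine Treg, 0.252% in CD4conv and 0.208% in pregnant uterine Treg. Uterine Treg did not overlap with either group (exact permutation p = 0.0286, adjusted 0.571), and both differences lie across the batches.

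The level of the mitochondrial total was set beside the background in each library. Both are shares of the same library total, so a larger background share by itself lowers the CPM of other genes. A negative r is therefore partly built in, and how much of it is was not tested. Over 16 libraries the protein gene CPM and the receptor gene share gave Pearson's r = -0.524 (permutation p = 0.0364, adjusted 0.109 over 6 relations) and Spearman's rho = -0.576 (p = 0.0217, adjusted 0.110). Without the 2 libraries farthest from the median share, lymph node Treg 3 and pregnant uterine Treg 4, r was -0.364. Within batch 1 r was -0.796 (n = 8, exact permutation p = 0.0238, adjusted 0.109) and within batch 2 it was -0.081 (n = 8, exact permutation p = 0.842). Without the 2 libraries of each batch farthest from its median share, r was -0.678 in batch 1 (without pregnant uterine Treg 2 and 4) and -0.613 in batch 2 (without uterine Treg 5 and lymph node Treg 3), so the value near 0 in batch 2 rests on those 2 libraries. For the total, r was -0.416 (permutation p = 0.0964), -0.426 within batch 1 and -0.419 within batch 2. The relation did not pass the adjusted threshold in any of the 6 cases.

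The nuclear genes that make, process and translate mitochondrial RNA were followed in 6 lists, of which 157 genes were tested. No gene of these lists passed the edgeR threshold in any comparison, beside the shares of all genes given above. The list medians stood below the median of all genes in the tissue comparison for all 6 lists, between -0.52 (transcription, replication and nucleoid) and -0.20 (translation and insertion). In that comparison the median over the 157 genes was -0.44 beside -0.06 for all genes, -0.26 beside 0.10 with library size scaling, and -0.15 beside 0.05 in the fit of genes above background, where 70 of them were tested. The shift was not particular to the tissue comparison. In the main fit the median over the 157 genes was -0.47 beside -0.05 for cell type, and -0.45 beside 0.07 for pregnant uterine Treg against CD4conv. For pregnancy it was 0.03 beside 0.11.

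Of the transcription factors and enzymes of the nucleoid, Tfam, which packages mitochondrial DNA and starts its transcription, averaged 41.1 CPM in CD4conv, 58.0 in lymph node Treg, 59.8 in uterine Treg and 49.9 in pregnant uterine Treg, with log2 fold changes from -0.09 to 0.36. Polrmt, the mitochondrial RNA polymerase, averaged 26.8, 37.5, 27.9 and 15.4 CPM in the same order. Twnk, the replicative helicase, averaged 21.95 CPM in CD4conv against 9.77 CPM in pregnant uterine Treg (log2 -1.79, SE 0.72, edgeR adjusted p = 0.778), and Top1mt, the mitochondrial topoisomerase, 8.62 and 1.64 CPM (log2 -2.37, SE 1.08, adjusted p = 0.959). Mterf4, which acts in assembly of the mitochondrial ribosome, averaged 8.25 CPM in CD4conv and 2.23 in uterine Treg (log2 -2.56, SE 1.11, adjusted p = 0.788). The low means of Top1mt (1.64 CPM) and Mterf4 (2.23 CPM) lie near the 1.92 CPM that the filter on low counts asked for. The size of both fold changes depends on those low levels. Ssbp1, which binds single-stranded mitochondrial DNA, was at 40.6 to 52.2 CPM in uterine Treg and 56.6 to 84.9 CPM in CD4conv, without overlap (log2 -0.86, SE 0.47, adjusted p = 0.999). In this comparison, which crosses the batches, 2.65% of all genes were lower in uterine Treg without overlap.

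Among RNA processing and stability factors, Lrpprc, which with Slirp stabilises mitochondrial mRNA, averaged 61.1 CPM in CD4conv, 71.9 in lymph node Treg, 99.8 in uterine Treg and 83.2 in pregnant uterine Treg. Its log2 fold changes ran from -0.16 to 0.49. Slirp averaged 12.5 CPM in uterine Treg and 22.2 in CD4conv (log2 -1.18, SE 0.59). Fastkd2, which binds the 16S rRNA, averaged 27.5 and 44.2 CPM (log2 -1.16, SE 0.51) and Fastkd1 48.1 and 16.2 CPM (log2 1.24, SE 0.65). Ptcd3, a protein of the small mitoribosomal subunit, averaged 62.7 CPM in uterine and 105 CPM in lymph node Treg (log2 -0.75, SE 0.43). The lowest edgeR adjusted p in this list was 0.811. The regulators of biogenesis gave no smaller value than 0.999: Ppargc1a, the coactivator PGC-1 alpha, averaged 25.7, 40.1, 35.6 and 41.6 CPM in CD4conv, lymph node Treg, uterine Treg and pregnant uterine Treg. Myc averaged 59.5, 88.6, 44.2 and 22.01 CPM, Nrf1 76.2, 153, 107 and 147 CPM, Gabpb1 57.3, 80.5, 79.8 and 99.7 CPM, and Pprc1 41.3, 43.4, 40.1 and 23.7 CPM. Only 70 of the 157 listed nuclear genes entered the fit of genes above background. Background counts can therefore make up part or all of the mean of a named nuclear gene, Ppargc1a included. How large that part is was not tested for single genes, so these means need not be expression levels.

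The mitoribosomal protein genes were the largest list, with 78 of 79 tested. Their median log2 fold change was -0.49 in the tissue comparison, -0.66 in the cell type comparison, -0.04 in the pregnancy comparison and -0.70 for pregnant uterine Treg against CD4conv, with 11, 6, 38 and 9 members above 0. Over all 30096 genes the medians were -0.06, -0.05, 0.11 and 0.07 in the same order, with 14114, 14378, 17005 and 16155 genes above 0. Mrps27, of the small subunit, had the lowest adjusted p of the list. It averaged 14.6 CPM in lymph node Treg and 0.831 in uterine Treg (log2 -4.80, SE 1.08, edgeR adjusted p = 0.658), with 9.96 in CD4conv (adjusted p = 0.0670) and 6.67 in pregnant uterine Treg. DESeq2 called it lower in uterine Treg than in both lymph node Treg and CD4conv. In the uterine Treg libraries 3 counts are worth 0.534 to 1.48 CPM, so the Mrps27 mean of 0.831 CPM there rests on very few counts. The size of its fold changes and these calls depend on that low level, and are given as a description. Mrpl55, of the large subunit, averaged 21.2 CPM in CD4conv and 4.45 in pregnant uterine Treg (log2 -2.57, SE 0.74, edgeR adjusted p = 0.217), and was called lower by DESeq2 and in the fit of genes above background. Mrps28 averaged 29.1 and 9.78 CPM in the same groups (log2 -1.82, SE 0.63). Mrpl52 averaged 74.9 CPM in CD4conv and 28.0 in uterine Treg (log2 -1.93, SE 0.69).

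Of the mitochondrial aminoacyl-tRNA synthetases, which charge tRNAs with their amino acids, Vars2 averaged 8.00 CPM in uterine Treg and 21.1 in CD4conv (log2 -1.60, SE 0.75), Ears2 17.6 and 27.2 CPM (log2 -1.17, SE 0.56) and Rars2 56.7 and 23.5 CPM (log2 1.23, SE 0.62). Nars2 averaged 21.98 CPM in uterine and 39.4 CPM in lymph node Treg (log2 -0.95, SE 0.49). The lowest edgeR adjusted p of these genes was 0.914. Of the genes for translation and insertion, Tufm, the mitochondrial elongation factor, averaged 26.5 CPM in uterine and 47.5 CPM in lymph node Treg (log2 -1.17, SE 0.56, adjusted p = 1.00). Cox10 and Cox15, which make the heme A of complex IV, averaged 34.0 and 35.5 CPM in CD4conv, against 19.3 and 19.0 CPM in pregnant uterine Treg. Mtrf1l, a release factor, averaged 20.98 CPM in non-pregnant and 40.9 CPM in pregnant uterine Treg (log2 0.93, SE 0.57).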

How the data were processed

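The deposited values are raw counts per gene made by the authors, not normalized. Per the submitters' processing notes, Trimmomatic, HISAT2, SAMtools, featureCounts and DESeq2 were used with GRCm38; no version or setting, such as how reads with several matches were treated, is given in the sources used here. Per the labels' protocols, cDNA was made with SMART-Seq v4 and libraries with Nextera XT, neither of which marks strand. The counts of all 16 single-library files were identical to the table. GENCODE M21 named 49326 of 49585 genes.

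The members and gene lists were chosen with earlier results of these data known. All members are described; from each nuclear list the text takes up to 4 genes with the lowest p at 5 CPM or more, and Tfam, Polrmt, Lrpprc, Ppargc1a and Tufm. Copies were sought with blastn 2.17.0 among annotated transcripts. Groups, taken from the labels, were tested with edgeR 4.0.16 (TMM, filterByExpr, robust quasi-likelihood fit over the 16 libraries with 12 residual df) under R 4.3.3; SE is the fold change over the square root of F. Shares were compared by two-sided exact permutation tests (scipy 1.17.1), relations over 16 libraries with 100000 permutations. Alternatives used DESeq2 1.42.0, other scalings, filters and blocks, genes above 5 times background, and libraries left out. Replicate pools are separate samples per the labels. Fits were tested on simulated data.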

Additional observations from a re-analysis of the deposited data

Results flagged for a closer look

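In 2 of the 104 groups of 4 values examined, the sample at the edge lay far from the other 3 (Dixon's test at the 95% level), which chance gives in about 1 of 20 groups. mt-Nd5 was at 1377 CPM in uterine Treg 5, against 770 to 866 CPM in the other 3 uterine Treg libraries. The tRNA genes made up 0.355% of mitochondrial counts in pregnant uterine Treg 4, against 0.0919% to 0.127% in the other 3 libraries of that group. The background from genes silent in T cells was 34.9% of counts in uterine Treg 5 and 53.5% in pregnant uterine Treg 4, and its part in either value was not tested.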

How the results depend on the processing

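The count of members past the threshold stayed at 0 in the tissue and pregnancy comparisons and for pregnant uterine Treg against CD4conv under all settings run. In the cell type comparison it was 1 with library size scaling, 3 with DESeq2, 3 in genes above background and 1 with the replicate block (mt-Co3, adjusted p = 0.0399), and 0 whenever a library was left out; the cause was not tested. Over all genes, the calls in the tissue, cell type and pregnancy comparisons and for pregnant uterine Treg against CD4conv were 31, 322, 17 and 314 with DESeq2, and 2, 427, 4 and 230 without the 5 libraries of high background. In genes above background they were 62, 287, 0 and 393. Leaving out 1 library gave 72 to 170 calls in the cell type comparison, with 83 when CD4conv 2 and 72 when CD4conv 3 was the one left out, and 82, 102 and 95 for uterine Treg 1, 2 and 3. It gave 72 to 162 for pregnant uterine Treg against CD4conv, with 72 without CD4conv 3 and 86 without pregnant uterine Treg 1 or 2. Same-numbered libraries correlated at -0.312 to 0.386 in the tissue comparison and -0.0186 to 0.209 in the cell type comparison. The non-pregnant groups carry the same replicate numbers, and these correlations cannot show whether same-numbered libraries were paired. With the replicate block there were 0, 113, 1 and 145 calls over all genes. The same 2 groups fitted alone without it gave 0, 148, 0 and 78. The last 2 block fits hold only the 6 libraries of 3 shared numbers, and the fits without it all 8. The log2 difference in mitochondrial total between uterine and lymph node Treg was -0.0302 with TMM scaling and -0.127 over protein genes alone. Without 1 library it ran from -0.0386 (without lymph node Treg 5) to 0.344 there, from -0.679 to 0.0045 for cell type (0.0045 without CD4conv 2), from -0.0243 (without pregnant uterine Treg 2) to 0.274 for pregnancy and from -0.588 to 0.0959 (without CD4conv 2) for pregnant uterine Treg against CD4conv. The share in protein counts of the 5 members whose copy differs by at most 1 base differed by 0.0364 percentage points for tissue without the libraries of high background, against -0.053 with them. Without 1 library these differences ran from -0.0778 to -0.028 (tissue), -1.37 to -1.20 (cell type), 0.686 to 0.876 (pregnancy) and -0.626 to -0.436. Of 1262 values of single members under other settings, 1133 kept their direction and side of the threshold, 8 passed it and 121 changed sign without passing it. Depth limits mt-Atp8, mt-Nd3, mt-Nd4l and the tRNA genes most, where 3 counts are worth 0.197 to 1.75 CPM.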
